A study of Mus musculus with 352 samples.

Results

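Loss of the clock gene Bmal1 (symbol Arntl) was examined in tibialis anterior, the fast shin muscle, of 26-week-old mice. The comparison used the 46 libraries of the 2 ad libitum-fed genotypes of that age, out of 352 libraries in the whole series. In 24 knockout mice (KO; 13 females, 11 males; genotype Bmal1(stopFL/stopFL), Cre(-/-)) a floxed stop cassette blocked Bmal1 and no Cre was present to remove it, so by this design the gene is off in the whole body and not in muscle alone. They were compared with 22 wild-type mice (WT; 11 females, 11 males). All were of strain C57BL/6, and 3 to 5 mice per genotype were sampled at each of 6 zeitgeber times (ZT, hours after lights on) spaced 4 h apart. Every mouse was sampled once, so a daily rhythm here is a pattern across animals. For comparison across age, 23 KO and 23 WT mice of 10 to 12 weeks (called 10 weeks below) fed ad libitum were used, and for feeding, 23 KO and 24 WT mice of 26 weeks on time-restricted feeding.

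BMAL1 pairs with CLOCK and binds E-box sequences to switch on Per and Cry genes, whose proteins then inhibit the pair, and the nuclear receptors REV-ERB alpha and beta (Nr1d1, Nr1d2), which repress Bmal1 itself. The pair also drives Dbp and Tef, transcription factors that pass the rhythm on to output genes. In skeletal muscle the clock is known for its links to glucose use, lipid use and fibre properties, and mice without Bmal1 in the whole body are known to lose daily rhythm and to age early.

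The canonical E-box CACGTG is the sequence to which BMAL1 and CLOCK bind, so the promoters of clock genes that hold it are shown. RefSeq windows of 300 bases (GRCm38.p6; 250 bases before to 50 bases after a transcription start) were present for 13 of the 16 clock genes tested, 18 windows in all. CACGTG reads the same on both strands, and 5 of the 18 windows held it, in 4 genes, against 7.15% of all 32851 windows in the table. The windows are chr11:69098699-69098998 (+ strand) for Per1, chr10:85185005-85185304 (- strand) for Cry1, chr15:81802423-81802722 and chr15:81811164-81811463 (both + strand) for Tef, and chr6:145865371-145865670 (- strand) for Bhlhe41. Capitals mark CACGTG, each sequence runs 5′ to 3′ on the strand of the gene, and a match of letters is not evidence of binding.
Per1: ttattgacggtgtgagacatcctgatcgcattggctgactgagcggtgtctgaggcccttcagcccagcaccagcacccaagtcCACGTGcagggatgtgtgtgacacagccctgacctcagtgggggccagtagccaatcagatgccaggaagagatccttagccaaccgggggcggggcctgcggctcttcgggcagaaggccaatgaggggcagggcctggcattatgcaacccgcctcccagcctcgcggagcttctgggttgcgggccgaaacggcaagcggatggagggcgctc
Cry1: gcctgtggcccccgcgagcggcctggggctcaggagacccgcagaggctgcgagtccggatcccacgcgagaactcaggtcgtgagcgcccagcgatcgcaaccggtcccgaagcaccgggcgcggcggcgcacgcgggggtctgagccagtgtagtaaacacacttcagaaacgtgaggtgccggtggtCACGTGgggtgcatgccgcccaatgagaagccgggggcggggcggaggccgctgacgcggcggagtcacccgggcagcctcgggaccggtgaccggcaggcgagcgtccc
Tef, first start: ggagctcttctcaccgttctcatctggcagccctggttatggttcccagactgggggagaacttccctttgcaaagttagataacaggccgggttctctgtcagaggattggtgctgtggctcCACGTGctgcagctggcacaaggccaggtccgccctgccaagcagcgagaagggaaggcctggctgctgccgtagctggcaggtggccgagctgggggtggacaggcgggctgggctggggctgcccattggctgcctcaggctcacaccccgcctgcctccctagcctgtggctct
Tef, second start: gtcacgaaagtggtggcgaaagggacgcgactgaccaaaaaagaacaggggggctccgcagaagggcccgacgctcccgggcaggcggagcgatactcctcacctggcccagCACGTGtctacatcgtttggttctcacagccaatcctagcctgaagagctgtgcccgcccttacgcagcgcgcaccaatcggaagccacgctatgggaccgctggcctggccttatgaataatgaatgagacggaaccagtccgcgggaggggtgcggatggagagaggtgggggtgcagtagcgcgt
Bhlhe41: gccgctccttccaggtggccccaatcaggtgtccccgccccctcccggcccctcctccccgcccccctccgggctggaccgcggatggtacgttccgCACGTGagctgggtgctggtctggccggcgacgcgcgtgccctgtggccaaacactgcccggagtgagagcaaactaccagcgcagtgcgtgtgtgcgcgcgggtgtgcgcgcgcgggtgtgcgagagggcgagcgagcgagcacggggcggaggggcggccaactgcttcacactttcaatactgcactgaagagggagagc
The motif begins 166 bases before the start in Per1, 60 before it in Cry1, 127 and 138 before the 2 starts of Tef, and 153 before it in Bhlhe41. The 4 genes did not share a direction in KO muscle: Tef and Bhlhe41 fell, Cry1 rose, and Per1 was not called, with the values given below.

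Values are the authors' log2 FPKM (fragments per transcript length and sequencing depth), and a difference of 1 is a doubling. Depth estimated from the low values was 17.1 to 38.9 mega-reads (M) in KO and 15.4 to 34.5 M in WT libraries, with medians of 21.3 and 21.4 M, and 1 FPKM was worth about 88.5 reads at a typical gene length. Libraries of a genotype correlated at r of 0.876 to 0.985, and no duplicate library was found. The muscle markers were high throughout, with a mean log2 level over 10 genes of 11.19 to 11.80 in KO and 11 to 11.43 in WT mice. KO animals 11, 3 and 15 correlated least with their group, with a median r of 0.909, 0.932 and 0.934. The main counts without all 3 are given in the last section, and several results without animal 11 where they come up.

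Arntl itself (ENSMUSG00000055116, chromosome 7, 113207465 to 113314126, GRCm38) had no called daily rhythm in KO muscle and stayed at a high level. In KO mice it ranged from 3.12 to 4.31 with a median of 3.73, and in WT mice from 0.99 to 4.05 with a median of 2.84. By time of day, KO means were 3.71 ± 0.20 at ZT 0, 3.73 ± 0.12 at ZT 4, 3.83 ± 0.34 at ZT 8, 3.53 ± 0.31 at ZT 12, 3.61 ± 0.10 at ZT 16 and 3.85 ± 0.19 at ZT 20 (SD, n = 3 to 5). WT means were 3.45 ± 0.48, 3.29 ± 0.21, 2.32 ± 0.66, 1.20 ± 0.24, 2.20 ± 0.29 and 3.14 ± 0.44 at the same times (SD, n = 3 to 4). The KO level was thus close to the WT daily maximum at every time. The fitted amplitude (the log2 distance from the daily mean to the peak) was 0.08 (SE 0.06) in KO and 1.08 (SE 0.12) in WT muscle, where the peak fell at ZT 0.228 (limma, adjusted p = 4.06e-05). The rhythm differed between genotypes (adjusted p = 8.74e-05) and the 24 h mean was higher in KO by 1.12 (SE 0.10, adjusted p = 4.62e-13). Reads are added up over the whole gene, so this level says nothing of the stop cassette or of the protein.

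Of the positive limb, Clock, the partner of BMAL1, also rose. It ranged from 1.76 to 3.21 (median 2.50) in KO and from 0.76 to 2.26 (median 1.62) in WT mice, a difference of 1.03 (SE 0.08, adjusted p = 4.96e-15). Its rhythm differed as well (adjusted p = 0.00201), with an amplitude of 0.22 (SE 0.07) in KO and 0.48 (SE 0.07) in WT muscle.

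**Figure D1:**
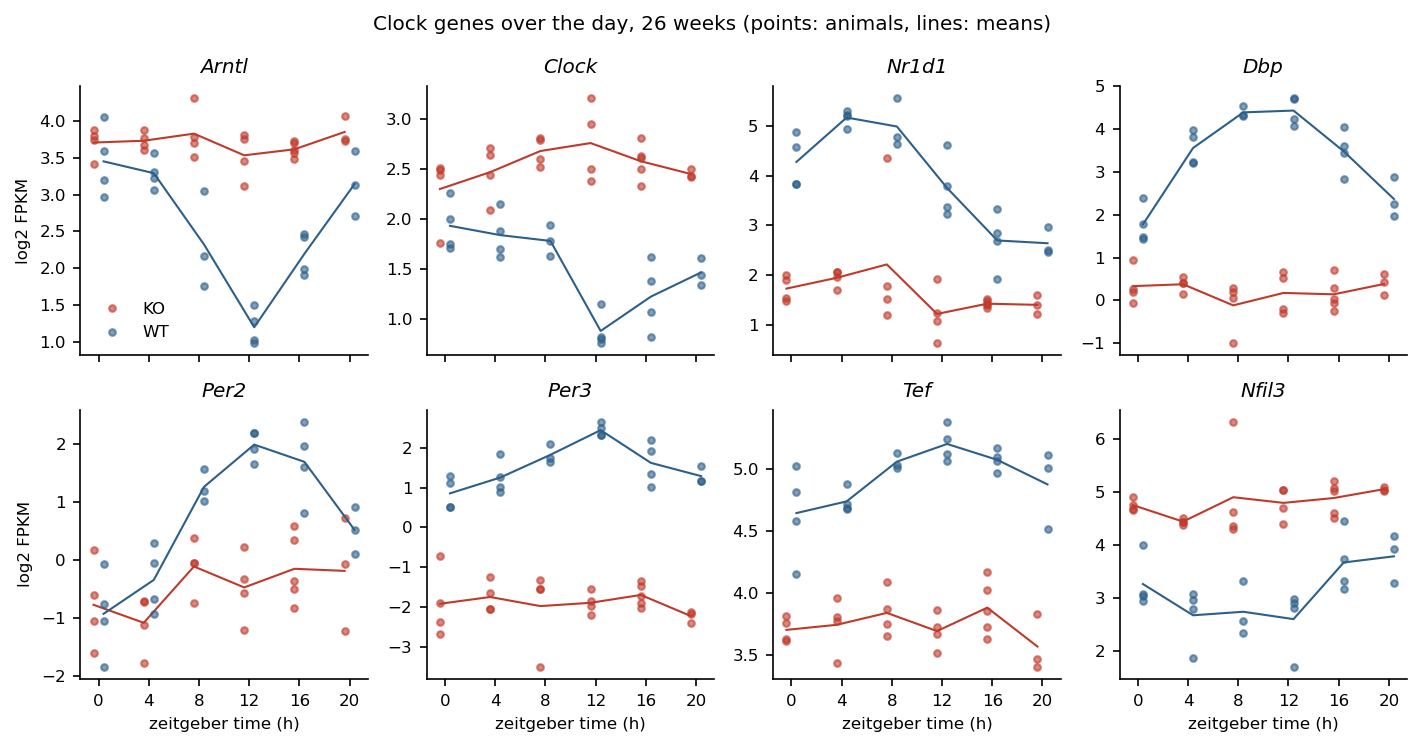
Log2 FPKM of 8 clock genes against zeitgeber time in hours, 26 weeks; red points are KO animals, blue points WT animals and lines join the means per time point. Dbp, Per2, Nr1d1 and Arntl swing in WT with amplitudes of 1.41, 1.48, 1.43 and 1.08, and Dbp, Per2 and Arntl are near flat in KO. The rhythm difference of Nr1d1 was not called with animal 11 in the fit (limma, adjusted p = 0.129). That animal is the KO point of Nr1d1 at 4.36 at ZT 8.

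Direct output of the clock was low at all hours. Dbp ranged from -1.0 to 0.95 (median 0.22) in KO and from 1.44 to 4.72 (median 3.53) in WT mice, so no KO mouse reached the lowest WT mouse at any time of day. Its KO means stayed between -0.12 ± 0.60 at ZT 8 and 0.38 ± 0.25 at ZT 20 (SD, n = 4 and 3), while WT means ran from 1.77 ± 0.43 at ZT 0 to 4.44 ± 0.33 at ZT 12 (SD, n = 4 each). The level fell by 3.13 (SE 0.11, adjusted p = 2.58e-26) and the rhythm difference had the smallest p of all genes (adjusted p = 5.97e-08). Tef, a relative of Dbp, fell by 1.19 (SE 0.06), with 3.40 to 4.17 in KO and 4.15 to 5.38 in WT mice. Nfil3, which represses the sites that Dbp activates, rose by 1.69 (SE 0.14, adjusted p = 1.09e-13), with 4.31 to 6.32 in KO (median 4.69) and 1.70 to 4.45 in WT mice (median 3.05). Activators and the repressor of these sites thus changed in opposite directions.

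The repressive limb fell in most of its members. Per3 ranged from -3.49 to -0.71 (median -1.90) in KO and from 0.51 to 2.64 (median 1.44) in WT mice, a fall by 3.43 (SE 0.14, adjusted p = 1.41e-23). Nr1d2 had 1.99 to 3.07 in KO and 3.78 to 5.18 in WT mice and fell by 2.32 (SE 0.08, adjusted p = 2.98e-27). Neither gene overlapped between genotypes, and with Dbp they were the 3 clock genes of which that was true, beside 1.16% of all genes. Nr1d1 had 0.64 to 4.36 (median 1.52) in KO and 1.92 to 5.55 (median 3.83) in WT mice and fell by 2.27 (SE 0.16). Per2 fell by 1.15 (SE 0.17), Bhlhe40 and Bhlhe41, which compete for E-boxes, fell by 1.47 (SE 0.14) and 1.15 (SE 0.10), and Rora, the activator that opposes the REV-ERBs, fell by 0.76 (SE 0.12). Cry1 rose by 0.34 (SE 0.05), with 2.54 to 3.03 in KO and 1.89 to 2.75 in WT mice. Per1 (-0.24, SE 0.23, adjusted p = 0.414) and Cry2 (0.15, SE 0.13, adjusted p = 0.36) were not called in level.

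Of 19 clock genes listed, 16 passed the filter on low values, and 5 rose and 9 fell (Npas2, Ciart and Hlf lay under 1 FPKM on average). The median difference was -0.96, beside 0.00 over all 9862 genes tested, of which 24.4% were higher and 22% lower in KO muscle. With 46 libraries in the fit, 2406 genes were higher and 2165 lower (limma, Benjamini-Hochberg adjusted p of 0.05), and 521 and 519 of them differed by at least 1.5-fold. Each gene named here, and each count of a list below, is read against that background.

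No gene was called rhythmic in KO muscle. Limma called 0 of 9862 genes (0%) in KO mice, with 596 at an unadjusted p under 0.05, against 103 (1.04%) in WT mice, with 705 unadjusted. With time fitted as 6 separate levels, 2 genes were called in KO (Ccrl2 and Gm11966) and 66 in WT mice. The WT genes peaked mostly at 2 times of day, with 35 of the 103 between ZT 12 and 16 and 26 between ZT 0 and 4. They were picked for their rhythm in WT mice, so their amplitudes are given as a description only: the median was 0.14 in KO and 0.48 in WT muscle, and 101 were smaller in KO. In WT mice of 10 weeks 576 of the 9862 genes were called, and 78 of the 103 were among them. Whether the rhythm difference itself changed with age was tested and 0 genes were called by limma, with 288 at an unadjusted p under 0.05.

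Between KO and WT mice the rhythm of 17 genes (0.172%) differed, 602 passing without adjustment at 0.05, and all 17 were among the 103. They were Dbp, Arntl, Clock and Per2 of the clock, and 13 others that peaked in WT muscle between ZT 12.4 and 21.9 or between ZT 1.56 and 2.59. Usp2, a ubiquitin-specific protease, had an amplitude of 0.21 (SE 0.10) in KO and 0.69 (SE 0.09) in WT muscle with a peak at ZT 12.4 (adjusted p = 0.00305). Tspan4, a tetraspanin, had 0.11 (SE 0.08) in KO and 0.57 (SE 0.06) in WT muscle, with a peak at ZT 14.1 (adjusted p = 0.00175). Slc38a4, an amino acid transporter, peaked at ZT 2.59 in WT muscle, with an amplitude of 0.15 (SE 0.08) in KO and 0.67 (SE 0.10) in WT (adjusted p = 0.00437). Oxidising enzymes of small molecules were among them: Fmo2 had 0.20 (SE 0.12) in KO and 0.77 (SE 0.09) in WT muscle, and Aox1 had 0.18 (SE 0.09) in KO and 0.55 (SE 0.08) in WT. Maco1 and Adamtsl4 completed the 10 with the smallest p, with amplitudes of 0.08 and 0.09 in KO and 0.33 and 0.68 in WT muscle. The remaining ones were Arhgap20, Mid1ip1, Mturn, Slc25a30, Adh1 and Ypel2.

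The number of rhythm differences called depended on KO animal 11, a male of ZT 8. Without it, 32 genes differed in rhythm, all of the 17 among them. Those added included Nr1d1 (limma, adjusted p = 2.51e-05 without the animal and 0.129 with it), Cry2 (0.00188 and 0.682) and Per1 (0.00918 and 0.482). Nr1d1 had an amplitude of 0.37 (SE 0.17) in KO and 1.43 (SE 0.11) in WT muscle, and its KO mean at ZT 8, 2.22 ± 1.45 (SD, n = 4), had the widest spread of its time points. The count of rhythmic KO genes stayed at 0 without the animal.

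Genes that respond to glucocorticoids, the adrenal hormones that rise each day before the active phase, stood far apart in this animal. Of the 18 genes of the list, 17 were higher in it than in the other 3 KO mice of ZT 8 and 16 were higher than in any of the other 23 KO mice. The animal was chosen for a check because of such genes, and the matching share over all genes was not counted. Its library also correlated least with its group. The mean log2 level over the list was 6.43 in animal 11, against 3.72, 2.87 and 3.46 in the other KO mice of ZT 8. Over all animals it ran from 2.68 to 6.43 (median 3.45) in KO and from 2.92 to 4.01 (median 3.38) in WT mice, so that value was the highest of the KO mice and lay above all WT mice. Fkbp5, a co-chaperone of the glucocorticoid receptor, stood at 4.83 in it, against at most 2.86 in the other KO mice. Mt1, a metallothionein, stood at 9.08 against at most 5.50, and Glul, glutamine synthetase, at 8.42 against at most 6.51. Fbxo32, the atrophy ubiquitin ligase atrogin-1, stood at 8.44 against at most 6.37. Its atrophy list was high too, at 5.52 against 4.04 to 4.14 in the other 3 KO mice of its time, as were the p53 targets, at 5.11 against 3.73 to 4.11. The atrophy list shares Fbxo32 and Foxo1 with the glucocorticoid list, so its mean is not a separate result. The part of the hormone in these levels was not tested, and no label sets this mouse apart.

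**Figure D2:**
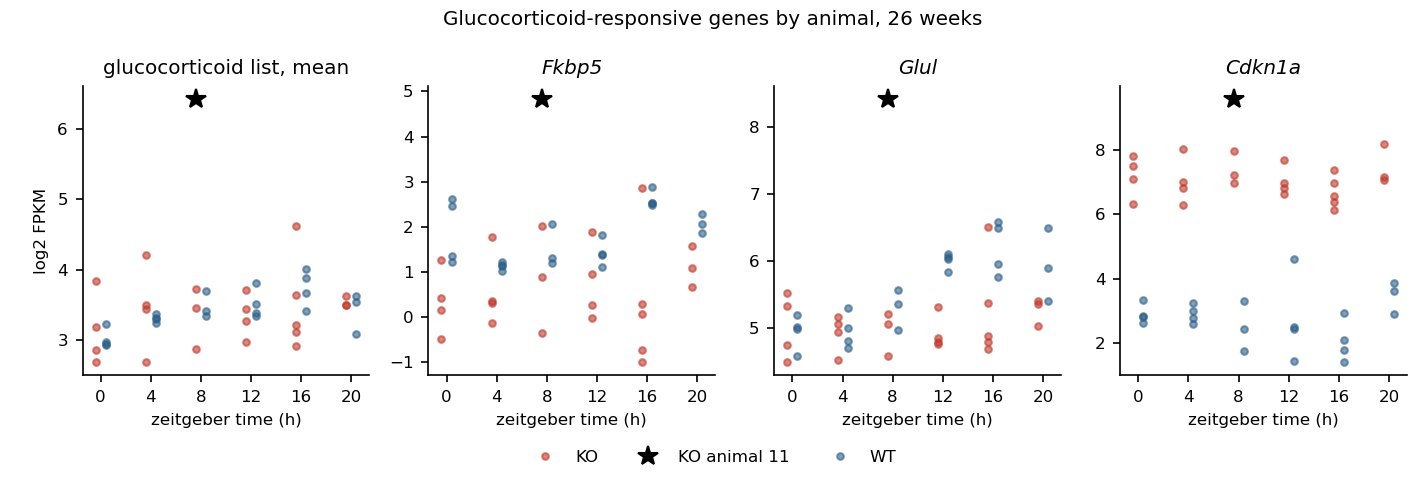
Log2 FPKM by animal against zeitgeber time in hours for the mean of the 18 glucocorticoid-responsive genes, Fkbp5, Glul and Cdkn1a; red is KO, blue is WT and the black star is KO animal 11. The star lies above the other KO animals of ZT 8 in all 4 panels, at 6.43 for the list mean.

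With animal 11 in the fit, 2 of the 18 glucocorticoid-responsive genes rose (Ddit4 and Foxo1) and 2 fell (Fkbp5 and Tsc22d3), with a median of 0.18. Both shares were below the 24.4% higher and 22% lower of all genes. Without it, 3 rose and 5 fell, with a median of 0.04. Tsc22d3 (GILZ, an anti-inflammatory mediator of the hormone) had 3.97 to 6.03 (median 4.34) in KO and 4.69 to 5.85 (median 5.26) in WT mice, a fall by 0.79 (SE 0.11, adjusted p = 3.63e-08), and by 0.86 (SE 0.08) without the animal. Fkbp5 had -1.0 to 4.83 (median 0.39) in KO and 1.02 to 2.87 (median 1.61) in WT mice and fell by 0.99 (SE 0.29, adjusted p = 0.00402), and by 1.17 (SE 0.23) without it. Ddit4, an inhibitor of mTORC1, rose by 1.60 (SE 0.33, adjusted p = 8.87e-05) and by 1.37 (SE 0.22) without it. Glul was not called with it (-0.36, adjusted p = 0.105) and fell by 0.52 (SE 0.10, adjusted p = 6.07e-05) without it. Sgk1 and Cebpd fell, by 0.50 and 0.79, and Klf15 rose, by 0.18, in the fit without the animal alone. Genes of this list that were rhythmic in WT muscle numbered 4, among them Glul with a peak at ZT 15 and Cebpb with a peak at ZT 16.3, and with animal 11 in the fit no difference in their rhythm was called.

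Among the largest falls was Ces1d, a carboxylesterase that hydrolyses lipid esters. It ranged from -6.82 to -0.60 (median -2.92) in KO and from 1.53 to 5.19 (median 3.90) in WT mice, and fell by 6.88 (SE 0.30, adjusted p = 1.21e-22). All 24 KO mice lay below all 22 WT mice, so no library went against its genotype label by this gene. Mylk4, a myosin light chain kinase, had 0.22 to 4.39 (median 3.28) in KO and 6.76 to 8.82 (median 7.86) in WT mice and fell by 4.71 (SE 0.23). Car3, carbonic anhydrase 3 and among the most abundant transcripts of WT muscle, had 5.17 to 9.14 (median 6.96) in KO and 9.80 to 10.87 (median 10.30) in WT mice and fell by 3.29 (SE 0.17). Cntfr, the receptor subunit for ciliary neurotrophic factor, fell by 3.10 (SE 0.20), with -3.39 to 0.00 in KO and 0.60 to 3.48 in WT mice. Prima1, the membrane anchor of acetylcholinesterase, fell by 3.74 (SE 0.40), with a median of -2.47 in KO and 0.89 in WT mice. Ifit3b fell by 3.97 (SE 0.14), and since it is a near-identical copy of Ifit3 (-1.38, SE 0.16), reads of the pair may have been split between them. The uncharacterised B230312C02Rik fell by 2.81 (SE 0.15), and ENSMUSG00000097243, which has no symbol in the table, fell by 3.05 (SE 0.25).

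**Figure D3:**
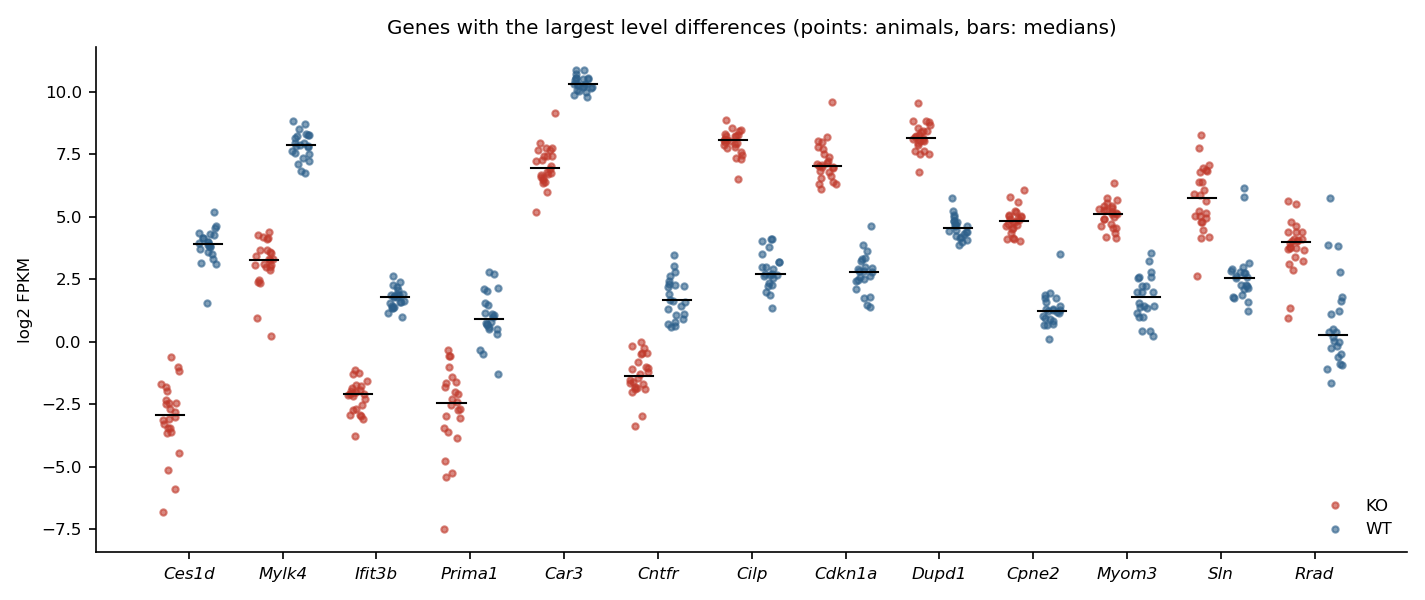
Log2 FPKM of 13 genes among those with the largest level differences; red points are KO animals, blue points WT animals, and black bars are medians. Ces1d, Mylk4, Car3, Cilp, Cdkn1a and Dupd1 separate the genotypes in every animal, while Sln, Rrad and Prima1 overlap.

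Among the largest rises was Cilp, a matrix protein of cartilage that restrains TGF-beta. It ranged from 6.52 to 8.88 (median 8.06) in KO and from 1.34 to 4.13 (median 2.71) in WT mice and rose by 5.12 (SE 0.18, adjusted p = 7.36e-26). Cdkn1a, the cell cycle inhibitor p21, had 6.13 to 9.58 (median 7.04) in KO and 1.40 to 4.63 (median 2.81) in WT mice and rose by 4.45 (SE 0.22, adjusted p = 1.38e-20). Its highest value, 9.58, was that of animal 11. Dupd1, a dual-specificity phosphatase, rose by 3.61 (SE 0.15), with 6.79 to 9.53 in KO and 3.88 to 5.74 in WT mice, and Cpne2, a calcium-dependent membrane-binding copine, rose by 3.55 (SE 0.17). Myom3, a sarcomere M-band protein, had 4.14 to 6.34 (median 5.13) in KO and 0.22 to 3.55 (median 1.77) in WT mice and rose by 3.30 (SE 0.21). Sln, sarcolipin, which uncouples the calcium pump of the sarcoplasmic reticulum, had 2.64 to 8.25 (median 5.75) in KO and 1.22 to 6.15 (median 2.56) in WT mice and rose by 3.0 (SE 0.36). Rrad, a small GTPase that damps calcium channels, rose by 2.99 (SE 0.45), with 0.95 to 5.61 in KO and -1.66 to 5.76 in WT mice, so the KO range lay within the WT range. The other 3 of the 10 largest rises were the noncoding or uncharacterised A930003A15Rik (3.71), Gm11734 (3.61) and Gm22346 (3.31).

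The cell cycle arrest gene was not alone in its list. Of 13 p53 target genes tested, 6 rose and 2 fell, with a median of 0.36, beside 24.4% higher and 22% lower of all genes. Bbc3, the pro-apoptotic PUMA, rose by 2.33 (SE 0.16), with 0.80 to 3.16 in KO and -1.30 to 0.95 in WT mice. Eda2r, a TNF receptor family member, rose by 1.54 (SE 0.15) and Btg2, an antiproliferative gene, by 0.95 (SE 0.22). Without animal 11 the list stood at 7 rises and 2 falls with a median of 0.20. The falls in that fit were Phlda3 (-0.61) and Ccng1 (-0.25), and Bax, Fas, Aen and Plk2 were not called.

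Fuel gene counts differed by substrate, beside 24.4% higher and 22% lower of all genes. Of 27 genes of fatty acid uptake and oxidation, 16 rose and 2 fell, with a median of 0.41. Plin5, which coats the lipid droplets next to mitochondria, had 3.34 to 6.08 (median 4.85) in KO and 2.13 to 4.50 (median 3.44) in WT mice and rose by 1.40 (SE 0.17). Pnpla2, the lipase ATGL that opens triglyceride breakdown, rose by 0.97 (SE 0.12), the fatty acid carrier Fabp3 by 0.89 (SE 0.18), and Hadha and Hadhb, the trifunctional protein of beta-oxidation, by 0.82 and 0.81. The transporter Cd36 rose by 0.61, and the 2 falls were Slc25a20, the carnitine carrier (-0.29), and Plin2 (-0.24). Of 28 genes of glucose uptake and glycolysis, 6 rose, a share near that of all genes, 12 fell and 10 were not called, with a median of -0.12. Tbc1d1, which governs the movement of the glucose transporter GLUT4 to the surface, had 0.80 to 3.13 (median 2.29) in KO and 3.86 to 5.15 (median 4.52) in WT mice and fell by 2.23 (SE 0.14) with no overlap. Pdp1, the phosphatase that activates pyruvate dehydrogenase, fell by 0.90 (SE 0.13), Hk2 (hexokinase) by 0.54, Pfkm (phosphofructokinase) by 0.64, Eno3 (enolase) by 0.58, Ldha by 0.59 and Slc2a4, GLUT4 itself, by 0.29. Ldhb, the lactate dehydrogenase subunit of oxidative muscle, rose by 0.85 (SE 0.09) and Ppp1r3c, a glycogen-targeting phosphatase subunit, by 0.99 (SE 0.14).

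Lipid synthesis genes numbered 12, of which 5 rose and 2 fell, with a median of 0.07, beside 24.4% higher and 22% lower of all genes. Fasn, fatty acid synthase, had 0.15 to 3.06 (median 1.18) in KO and -1.43 to 0.78 (median -0.38) in WT mice and rose by 1.61 (SE 0.18), and the desaturase Scd1 rose by 1.58 (SE 0.27). Cfd, the adipocyte protease adipsin, rose by 0.89 (SE 0.32, adjusted p = 0.0222), and the mean of the 2 adipocyte markers tested ran from 2.79 to 5.40 in KO and from 1.81 to 4.92 in WT mice. The defining adipocyte genes Adipoq and Plin1 lay under 1 FPKM on average, and the part of fat cells in these levels was not tested. Amino acid metabolism genes had 9 rises and 1 fall among 19, with a median of 0.17, led by Ivd of leucine breakdown (0.65, SE 0.06) and the aspartate aminotransferases Got1 (0.59) and Got2 (0.48).

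Genes of the respiratory chain that lie in the mitochondrial genome fell in KO muscle, while few of those in the nucleus were called. Of 30 nuclear oxidative phosphorylation genes, 6 rose and 0 fell by limma, with a median of 0.09, and this share of rises is below the 24.4% of all genes. Without KO animals 3, 11 and 15, 3 fell, and with the gene length slope of each library in the fit 17 rose, so this count rests on the handling of the libraries. Ndufa10 of complex I rose by 0.42 (SE 0.05). Of 12 genes of the mitochondrial genome, 0 rose and 11 fell, with a median of -0.68. Their mean log2 level was 11.40 to 12.93 (median 12.04) in KO and 11.37 to 13.74 (median 13.01) in WT mice, so the ranges overlapped, with WT the wider. Nuclear copies of these genes can share reads, and the part of RNA quality was not tested.

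**Figure D4:**
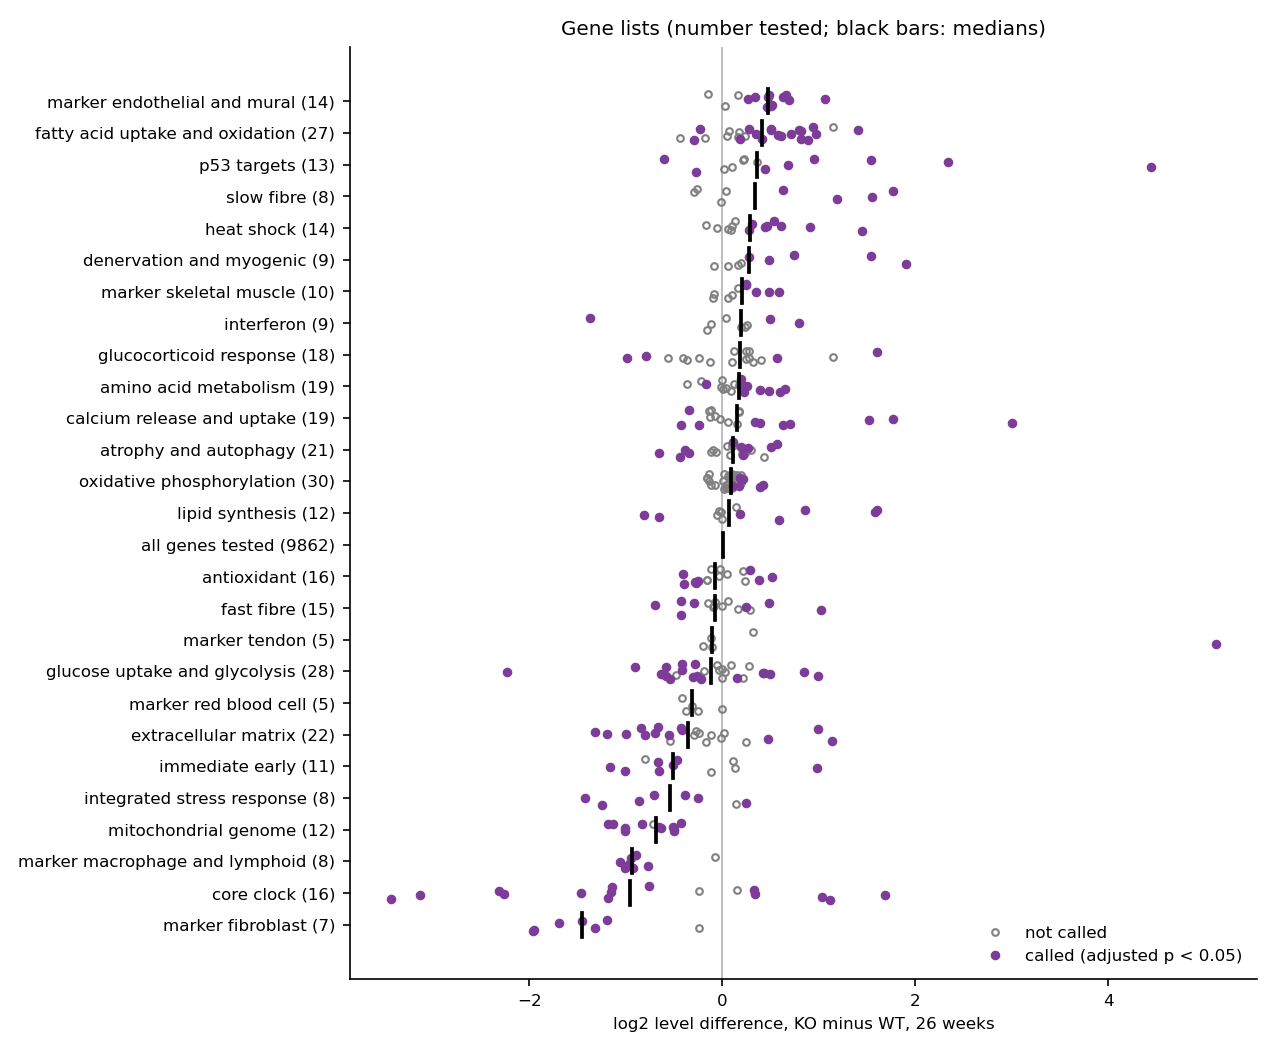
Log2 level differences, KO minus WT at 26 weeks, of the genes of each list with at least 5 genes tested (number in brackets); filled points passed limma at an adjusted p of 0.05, open grey points did not, and black bars are medians, with that of all 9862 genes at 0.00. Fibroblast markers have the lowest median (-1.46) and endothelial and mural markers the highest (0.48).

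Contractile genes changed by member and not as a whole. Of 8 slow fibre genes tested, 4 rose and 0 fell by limma, with a median of 0.34. Myh7, the slow myosin, Myh7b and Tnni1, the slow troponin I, lay under 1 FPKM on average and were not tested. Casq2, the slow and cardiac calsequestrin, had 5.53 to 6.96 (median 6.10) in KO and 3.57 to 5.10 (median 4.39) in WT mice and rose by 1.77 (SE 0.12) with no overlap, Myl2, the slow regulatory light chain, rose by 1.55 (SE 0.22), Myoz2 by 1.19 (SE 0.18) and Atp2a2, the slow calcium pump, by 0.63 (SE 0.09). The slow troponins Tnnt1 (-0.29) and Tnnc1 (-0.02) did not pass the test. Of 15 fast fibre genes, 3 rose and 4 fell, with a median of -0.08, beside 24.4% higher and 22% lower of all genes. Myh2, the myosin of fast oxidative fibres, had 7.04 to 9.38 (median 8.54) in KO and 6.07 to 9.24 (median 7.29) in WT mice and rose by 1.02 (SE 0.20). Myh1 (-0.08) and Myh4 (0.16), the other fast adult myosins, were not called, and Myoz1 fell by 0.70 (SE 0.09) and Pvalb, the calcium buffer parvalbumin, by 0.43 (SE 0.11).

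Of 19 genes of calcium release and uptake, 7 rose and 3 fell, with a median of 0.16. Both small inhibitors of the calcium pump in the list rose, Sln by 3.0 and Mrln (myoregulin) by 1.52 (SE 0.17), as did Cacng1, a subunit of the voltage sensor (0.71, SE 0.10), while the release channel Ryr1 (0.17) was not called. Of 9 genes tied to denervation and myogenesis, 5 rose and 0 fell by limma, with a median of 0.28. Myog, the myogenic transcription factor myogenin, had 2.08 to 4.35 (median 3.24) in KO and 0.31 to 2.85 (median 1.30) in WT mice and rose by 1.91 (SE 0.15, adjusted p = 1.35e-14), and Chrnb1, the acetylcholine receptor beta subunit, rose by 1.54 (SE 0.10). Of 21 atrophy and autophagy genes, 6 rose and 4 fell, with a median of 0.11, which is near the 24.4% higher and 22% lower of all genes. Mstn, myostatin, fell by 0.66 (SE 0.16), Foxo1 rose by 0.57 (SE 0.17), and the ligases Fbxo32 (0.10) and Trim63 (0.43) were not called. Without KO animal 11 Trim63 rose by 0.27 (SE 0.10, adjusted p = 0.0197), and Fbxo32 was at -0.02.

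Stress programmes differed from each other. Of 14 heat shock genes, 8 rose and 0 fell by limma, with a median of 0.29. Hspb7, a small heat shock protein of muscle, had 7.30 to 10.40 (median 8.29) in KO and 5.88 to 8.25 (median 6.82) in WT mice and rose by 1.45 (SE 0.19), Hspb6 rose by 0.91 (SE 0.12) and Bag3, the co-chaperone of filamin turnover, by 0.61 (SE 0.09). Of 8 genes of the integrated stress response, 1 rose and 6 fell, with a median of -0.55, among them Ddit3, the factor CHOP (-0.86, SE 0.08), Nupr1 (-1.25, SE 0.13) and Chac1 (-1.43, SE 0.35). Immediate early genes had 1 rise and 6 falls among 11, with a median of -0.51, and Dusp1, a MAP kinase phosphatase, fell by 1.01 (SE 0.14). Of 16 antioxidant genes, 3 rose and 5 fell with a median of -0.08, and of 9 interferon-responsive genes 2 rose and 1 fell with a median of 0.19. Over all genes 24.4% were higher and 22% lower.

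Markers of the non-muscle cells shifted in opposite directions. Of 7 fibroblast markers, 0 rose and 6 fell, with a median of -1.46, beside 24.4% higher and 22% lower of all genes. Their mean log2 level was 1.42 to 3.66 (median 2.65) in KO and 2.71 to 4.74 (median 4.08) in WT mice. Pi16, a marker of adventitial fibroblasts, had -1.70 to 1.54 (median -0.76) in KO and -0.05 to 2.38 (median 1.51) in WT mice and fell by 1.97 (SE 0.20), and Clec3b fell by 1.95 (SE 0.15), Dpt (dermatopontin) by 1.69 (SE 0.16) and Gsn by 1.46 (SE 0.13). Of 8 macrophage and antigen presentation markers tested, 0 rose and 7 fell, with a median of -0.93. In the fit without KO animal 11 the 1 not called was Cd68, a general macrophage marker (-0.16, limma, adjusted p = 0.438). The macrophage markers Adgre1 and Csf1r and the lymphocyte markers Cd3e and Cd79a lay under 1 FPKM on average. Ptprc had no values, so none of these 5 was tested. The mean level of the 8 tested was 0.37 to 2.38 in KO and 1.23 to 2.86 in WT mice. The complement gene C1qc was at -1.06 (SE 0.17) and the antigen presentation gene H2-Ab1 at -1.0 (SE 0.17). In bulk muscle, fewer cells of a type and less RNA per cell cannot be told apart.

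Endothelial and mural markers, of which 14 were tested, had 11 rises and 0 falls by limma, with a median of 0.48, beside 24.4% higher and 22% lower of all genes. Their mean log2 level was 2.65 to 3.93 (median 3.24) in KO and 1.89 to 3.40 (median 2.77) in WT mice. Kdr, the VEGF receptor 2, rose by 1.06 (SE 0.17) and Pecam1 by 0.63 (SE 0.11). Matrix genes followed both patterns: 3 of 22 rose and 10 fell, with a median of -0.36, where the basement membrane collagens Col4a1 and Col4a2 rose by 0.99 and 1.14 and Dcn, Lum, Fn1 and Col6a2 fell by 1.32, 1.20, 1.0 and 0.80. The part of cell composition in the matrix counts was not tested. Of 5 tendon markers only Cilp rose, while Scx (-0.10), Tnmd (0.32), Fmod (-0.11) and Thbs4 (-0.20) were not called, and of 5 red blood cell markers none was called by limma. Nerve and satellite cell markers had 1 rise each, Mbp among 3 (0.45) and Sdc4 among 2 (0.96).

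How far the changes at 26 weeks were those of young adults was examined in the mice of 10 weeks. Of the 2406 genes higher in KO muscle at 26 weeks, 1232 (51.2%) were also higher at 10 weeks, which is 61.6% of the 1999 higher at that age, and 99 were lower. Of the 2165 lower ones, 1243 (57.4%) were also lower at 10 weeks, which is 58.4% of the 2128 of that age, and 62 were higher. For reference, 1999 of all 9862 genes tested were higher and 2128 lower at 10 weeks. The size of the KO-WT difference itself differed between ages for 1851 genes (18.8%), with 1045 more positive and 806 more negative at 26 weeks. Of 16 clock genes, 5 were called between ages. Dbp differed by -3.13 at 26 and -2.71 at 10 weeks (adjusted p = 0.0860 for the difference between ages), and Nr1d2 by -2.32 and -2.24, whereas Arntl differed by 1.12 at 26 and 0.58 at 10 weeks (adjusted p = 0.00257), and Tef, Nfil3, Per3 and Bhlhe41 were also called. Without KO animal 11, 3 of the 16 were called, and Nfil3 (adjusted p = 0.0682) and Per3 (adjusted p = 0.0683) were not.

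Muscle stress and sarcomere genes were among those that changed most with age. Ankrd1, a mechanically induced titin-binding protein, differed by 2.47 (SE 0.26) at 26 and by -0.32 at 10 weeks (adjusted p = 1.08e-06). Rrad differed by 2.99 and 0.22, Myom3 by 3.30 and 0.75, Cilp by 5.12 and 2.66, and Bdh1, the mitochondrial ketone enzyme, by 1.05 at 26 and -1.65 at 10 weeks. Cdkn1a differed by 4.45 at 26 and 2.64 at 10 weeks (adjusted p = 1.65e-05). Values of opposite sign at the 2 ages were also seen for Myh2, at 1.02 and -1.25, for Hspb7, at 1.45 and -0.51, and for Myl2, at 1.55 and -0.53. Over the heat shock list, 8 of 14 genes were called between ages, and the median was 0.29 at 26 and -0.18 at 10 weeks. Over the fast fibre list, 10 of 15 were called, with medians of -0.08 and 0.30. More negative at 26 weeks were Prima1 (-3.74 and -1.73), Ifit3b (-3.97 and -2.15), Nrep (-2.74 and -1.24), Mdga1 (-1.42 and 0.48) and Gm12199 (-0.45 and 1.11).

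**Figure D5:**
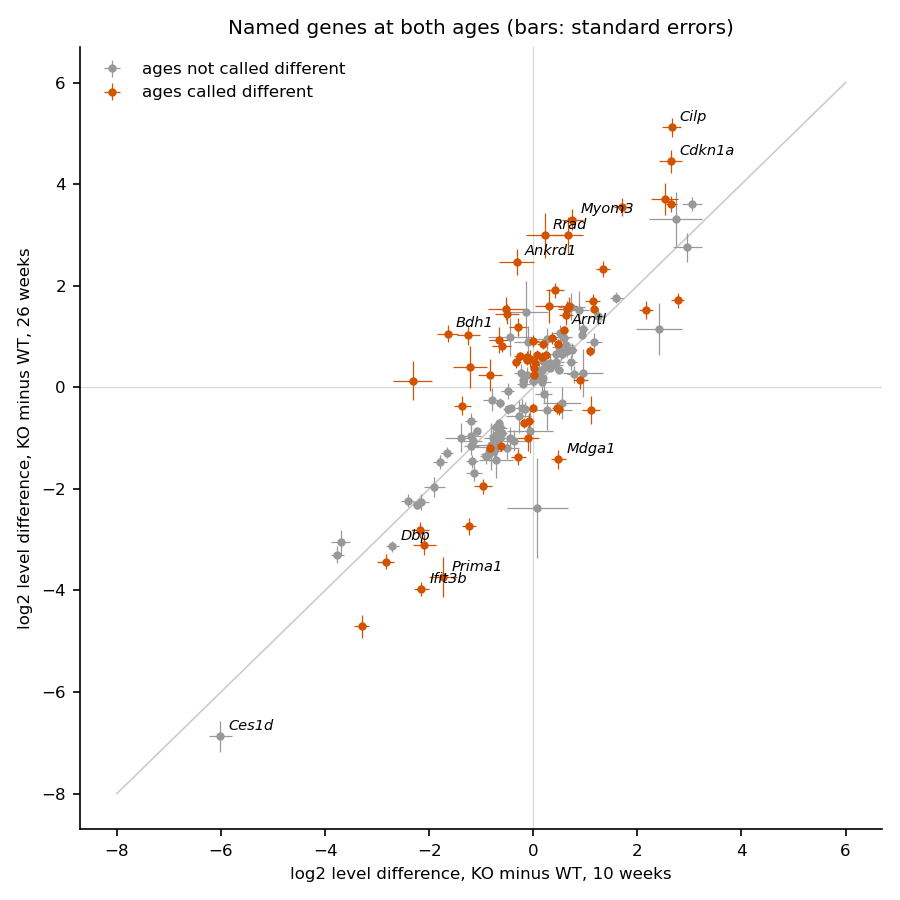
Log2 level difference KO minus WT of the named genes at 26 weeks (vertical) against that at 10 weeks (horizontal), with standard errors; orange points differ between ages by limma at an adjusted p of 0.05, and the grey line marks equal differences. Ankrd1 and Rrad lie well above the line, at 2.47 and 2.99 on the vertical axis, and Ces1d lies at the lower left, at -6.88.

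Feeding was examined by the same contrast in mice of 26 weeks on time-restricted feeding. The KO-WT difference was larger or smaller on ad libitum food for 2716 genes (27.5%), 1636 more positive and 1080 more negative. With each library centred on its median the split was 1275 and 1428, and with the gene length slope of each library in the fit 540 genes were called, so the number rests on how libraries are scaled. The calls of this contrast for lists and genes come from the fit without that slope and were not examined with it. Clock genes were called for 3 of 16 (2 without KO animal 11), and Dbp differed by -3.13 on ad libitum and -2.89 on restricted food. Of 14 endothelial and mural markers 11 were called, with a median difference of 0.48 on ad libitum and -0.15 on restricted food, and of 12 mitochondrial genome genes 8 were called, with medians of -0.68 and -0.11. The length slopes of the libraries ran from -0.235 to 0.113 in KO and from -0.0988 to 0.0971 in WT mice on ad libitum food, and from -0.130 to 0.126 in KO and from -0.224 to 0.0929 in WT mice on restricted food. Lipid genes gave examples: Ppara, the fatty acid receptor of the nucleus, differed by 0.94 on ad libitum and -0.51 on restricted food, and Scd1 by 1.58 and 0.12.

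The KO-WT difference was called as differing between females and males in 19 genes (0.193%), and the unadjusted p was under 0.05 in 864. In 259 of the 352 libraries, among them those used here, each gene has the same deposited mean in females and males; a shift of that kind removes the sexes' own levels but leaves this contrast untouched. Mettl21c, a muscle methyltransferase, differed by -0.15 in females and -2.03 in males (adjusted p = 0.000941), and Csrp3, the muscle LIM protein, by -1.18 in females and 1.55 in males. Meg3 and Rian, maternally expressed noncoding RNAs of a single imprinted cluster, differed by -0.43 and -0.61 in females and by 0.99 and 0.95 in males. Mybph, a myosin-binding protein, differed by 1.71 in females and 3.89 in males, and Aqp4, the water channel of fast fibres, by 1.45 in females and 0.15 in males (adjusted p = 0.0229). Without KO animal 11, a male, Aqp4 differed by 1.45 in females and 0.34 in males (adjusted p = 0.00411).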

How the data were processed

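RNA sequencing of tibialis anterior was used, with 46 libraries in the main comparison. The table deposited by the authors holds log2 FPKM for 14413 genes. Per the submitters' processing notes, the GRCm38 build was used with HISAT2 2.1.0, Trim Galore 0.5.0 and FastQC 0.11.8, and with limma 3.44.1, edgeR 3.30.0 and featureCounts 1.6.2. The strand setting of the counting is not stated there, so overlapping genes cannot be told apart. Reads per library were recovered from steps between low values, of which at least 93.3% per library of the main comparison (92.97% over all libraries used here) lay within 0.1 of a whole read.

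The 9862 genes whose mean across the 352 libraries reached 0 (1 FPKM) were tested. Linear models (limma 3.58.1, R 4.3.3, with trend and robust set) had terms for sex and, per genotype, for the 24 h mean and for cosine and sine of a 24 h period. Tests were two-sided, moderated t for level and moderated F for rhythm, and p values were adjusted by Benjamini-Hochberg over all genes tested at 0.05. Differences between ages, feeding schedules and sexes were contrasts of contrasts. The script was tested on simulated data. Labels do not pair the animals. Those of the same number in both genotypes deviated together with a median r of 0.034 (-0.199 to 0.378), and 8 of 21 pairs were over 0.1. Animals of different number were not compared in this way, so these r values cannot decide whether numbers mark a pairing.

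Named were Arntl, the clock and glucocorticoid lists, the 10 largest differences each way, the 10 smallest p for rhythm, the 4 largest called genes of each other list and the 5 largest each way of each contrast of contrasts; further list members are named for context, chosen after their values were seen, and 2 genes that count in their lists are not reported here by name. Members and lists were chosen with earlier results of these data known. Alternatives changed the filter, an added 1 FPKM, library centring, sex, variance, gene length slope, time as a factor, animals and time points.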

Additional observations from a re-analysis of the deposited data

Results flagged for a closer look

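Among 135 sets of KO or WT animals of 1 time point and 1 measure, 8 held a value far from the rest, where about 6.75 would come by chance at 1 in 20. KO animal 11 at ZT 8 held 2 of them, with Glul at 8.42 (the others 4.58 to 5.21) and Per3 at -3.49 (-1.55 to -1.31). The other KO values were Clock at 1.76 in animal 3 at ZT 0 and Glul at 5.31 in animal 16 at ZT 12. In WT mice they were Clock at 1.15 and Klf9 at 5.24 in animal 13 at ZT 12, Fkbp5 at 2.87 in animal 20 at ZT 16, and the mean of the glucocorticoid list at 3.23 in animal 2 at ZT 0.

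The KO-WT difference was called as differing between 26 and 10 weeks by 2.81 in Ankrd1, 2.79 in Rrad, 2.70 in Bdh1, 2.56 in Myom3 and 2.47 in Cilp. It was more negative at 26 weeks by -2.0 in Prima1, -1.89 in Mdga1, -1.83 in Ifit3b, -1.56 in Gm12199 and -1.50 in Nrep.

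Ad libitum minus restricted feeding gave 2.32 in Mir145a, 1.66 in Vsig2, 1.49 in Scd1, 1.43 in Ppara and 1.42 in Insl3, and -3.71 in Gm22200, -2.01 in Snrpert, -1.71 in Fos, -1.70 in Acp5 and -1.66 in Gm8069. Mir145a and Gm22200 are short genes, with animals of both genotypes at the lowest value the table gives. These feeding values come from the fit without the gene length slope and were not examined with it.

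Females minus males gave 1.88 in Mettl21c, 1.29 in Aqp4, 1.29 in Amd1, 1.26 in Zfp385a and 1.21 in Slc30a2, and -2.73 in Csrp3, -2.18 in Mybph, -1.56 in Rian, -1.41 in Meg3 and -1.09 in Lmcd1.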

How the results depend on the processing

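The level count was 4571 genes and ranged over all alternatives within 1.5 times of it. Leaving out an animal of every time point gave 3353 to 4455, leaving out a time point 3485 to 4436, and leaving out KO animal 11 alone 4650. For rhythm, leaving out animals moved the difference between genotypes to 1 to 32 genes and WT rhythms to 30 to 103, while KO rhythms stayed at 0; fewer animals enter these fits, and the 32 are those without KO animal 11. Time as a factor gave 4 rhythm differences, 66 WT rhythms and 2 KO rhythms. Without KO animals 3, 11 and 15, chosen after seeing the data, 27 genes differed in rhythm and 5316 in level. The replicate block on shared numbers gave 4287 level and 4 rhythm differences, against 4176 and 10 in the same animals with no block. The labels do not say whether animals of equal number are paired.

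The gene length slope as a covariate moved the feeding contrast to 540 genes and the sex contrast to 29, and the cause was not tested. Without KO animal 11 the age, feeding and sex contrasts gave 1821, 2741 and 24 genes. Without KO animals 3, 11 and 15 they gave 2531, 3822 and 24 genes. Of these, 70.2%, 70.1% and 75% were called in the main fit too. Over 136 named genes and all alternatives, 2895 of 2987 level results kept their side of the threshold, 69 were no longer called and 23 became called. No called value reversed, and 7 values that were not called in either fit changed sign, those of Fbxo32, Pdk4, Cry2 and Mt1. At 3 to 5 animals per time point, small rhythms may go undetected, and a count of 0 in KO muscle sets no limit on them.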
